A study of Mus musculus with 6 samples.

Results

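*Cck* and 9 other genes that encode neuropeptide precursors of the cortex were followed in the prefrontal cortex of *Pla2g4e* knockout and wild-type mice. The group holds 10 of the 56923 genes in the count tables: *Cck*, *Vip*, *Crh*, *Tac2*, *Pnoc*, *Pdyn*, *Adcyap1*, *Nts*, *Grp* and *Scg2*. They were selected on the KO against WT values of these same libraries as well as on their role as cortical neuropeptide genes, so those values describe the genes here and no test is given for them. All 10 passed the filter of at least 6 fragments in 1 library, as did 19084 genes in all. RNA-seq of polyadenylated transcripts was available for 3 knockout (KO) and 3 wild-type (WT) samples of this tissue. KO mice carried the constitutive *Pla2g4e* tm2a allele on C57BL/6N-A tm1Brd, and no strain is given for the WT samples. This allele holds a LacZ gene trap, and the paper describes it as a predicted null. In the hippocampus of KO mice, the paper reports no Pla2g4e protein by Western blot or immunostaining. *Pla2g4e* encodes a calcium-dependent N-acyltransferase that makes N-acyl-phosphatidylethanolamines. No age or sex is given for single samples in the sources used here, and both sexes were used in the study. No source states which animal each sample came from, so p-values measure only the spread between these samples.

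Neuropeptides are cut from larger precursor proteins that pass through the secretory pathway into dense-core vesicles. Granins help to form these vesicles, prohormone convertases and carboxypeptidases cut and trim the precursors, and the peptides released act mostly on G protein-coupled receptors. In the cortex, *Cck* is used by many pyramidal cells and by a class of basket cells, and *Vip* marks interneurons that inhibit other interneurons. *Crh*, *Tac2* and *Pnoc* are found in subsets of GABAergic cells, and *Pdyn* encodes the precursor of dynorphins. *Adcyap1* encodes PACAP, *Nts* neurotensin, *Grp* gastrin-releasing peptide, and *Scg2* secretogranin II, a granin from which secretoneurin is cut. Transcripts of several of these genes respond to neuronal activity and to cAMP, and the factor CREB binds the letters TGACGTCA, or their core TGACG, upstream of many such genes.

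The promoters of 7 of the 10 genes were read from the RefSeq table of GRCm38.p6, as the 250 bases upstream of each start. The other 3 genes are *Crh*, *Pnoc* and *Grp*. Shown are 5 promoters, 1 for each member with such a sequence whose KO and WT values were separate (*Cck*, *Pdyn*, *Nts*) or that was highest in KO replicate 1 and WT replicate 1 (*Scg2*, *Adcyap1*). Capitals mark TGACG on either strand, which reads CGTCA where it lies on the other strand, and where both overlap the whole TGACGTCA is in capitals.
*Cck* (chr9:121495695-121495944, minus strand): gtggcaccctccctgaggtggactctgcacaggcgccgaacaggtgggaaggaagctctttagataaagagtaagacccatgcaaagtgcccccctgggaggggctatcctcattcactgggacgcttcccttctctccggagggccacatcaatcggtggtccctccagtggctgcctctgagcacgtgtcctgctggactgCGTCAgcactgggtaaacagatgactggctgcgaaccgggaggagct
*Pdyn* (chr2:129699939-129700188, minus strand): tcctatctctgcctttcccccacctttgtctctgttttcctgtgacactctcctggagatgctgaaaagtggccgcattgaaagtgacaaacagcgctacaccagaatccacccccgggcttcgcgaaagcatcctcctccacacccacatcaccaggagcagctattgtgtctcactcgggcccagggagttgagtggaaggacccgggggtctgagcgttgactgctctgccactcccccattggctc
*Scg2* (chr1:79440027-79440276, minus strand): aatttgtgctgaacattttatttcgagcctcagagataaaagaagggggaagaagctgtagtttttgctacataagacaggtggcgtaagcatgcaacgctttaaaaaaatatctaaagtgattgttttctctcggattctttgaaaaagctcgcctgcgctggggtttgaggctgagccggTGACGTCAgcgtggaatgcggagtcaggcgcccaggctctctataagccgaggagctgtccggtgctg
*Adcyap1* (chr17:93198767-93199016, plus strand): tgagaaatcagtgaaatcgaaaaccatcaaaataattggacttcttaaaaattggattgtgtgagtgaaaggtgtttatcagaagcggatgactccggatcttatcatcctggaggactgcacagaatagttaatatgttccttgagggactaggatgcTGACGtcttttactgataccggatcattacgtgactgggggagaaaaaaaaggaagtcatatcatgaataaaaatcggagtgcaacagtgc
*Nts* (chr10:102490419-102490668, minus strand): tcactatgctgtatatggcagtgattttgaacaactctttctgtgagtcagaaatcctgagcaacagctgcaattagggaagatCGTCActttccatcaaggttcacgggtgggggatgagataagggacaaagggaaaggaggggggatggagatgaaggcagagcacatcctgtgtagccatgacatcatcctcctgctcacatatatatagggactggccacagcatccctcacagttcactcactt
The complete TGACGTCA was present in *Scg2* alone of the 7, with its first base 68 bases before the start. It was present in 508 of all 32851 promoters in the table, or 1.55%. The core TGACG occurred on either strand in 5 of the 7 genes, against 5836 promoters (17.8%) in the whole table. It began 47 bases before the start in *Cck*, 79 in *Vip*, 91 in *Adcyap1* and 166 in *Nts*. A second listed promoter of *Adcyap1* overlaps the one shown and holds the same letters 242 bases before its start. The core was not among the letters of these windows of *Tac2* and of both promoters of *Pdyn*. These matches describe the letters and not the binding of a factor.

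Library totals ranged from 11792463 to 14594230 fragments, and mitochondrial genes took 6.13% to 7.41% of them. Of all 19084 genes tested, 0 passed an adjusted p of 0.05 for KO against WT in limma-voom, and 1492 (7.82%) had an unadjusted p under 0.05. The edgeR quasi-likelihood test gave 0 and 1507 genes, and DESeq2 gave 1 and 902. *Pla2g4e*, the targeted gene, was counted at 5.95, 8.12 and 7.97 CPM (fragments of the gene over all fragments of the library, in units of 1e+06 after TMM scaling) in KO and at 7.84, 11.3 and 13.2 CPM in WT. Its transcript was therefore counted in all 3 KO libraries, and WT replicate 1 lay within the KO range. The X-inactivation transcript *Xist* reached 1390 CPM (KO replicate 1) and 969 CPM (WT replicate 1) but no more than 0.246 CPM elsewhere, and the other 4 libraries held fragments of Y-linked genes. The labels do not state this split. Markers of a neighbouring region also varied. Of 12 markers of the olfactory bulb, which lies in front of the prefrontal cortex, the mean deviation from the 6-library average of log2 CPM was 2.37 in KO replicate 1, 0.31 in KO replicate 2 and -0.48 in KO replicate 3. It was 0.56, -2.34 and -0.41 in WT replicates 1 to 3. Summed, these markers were at 233 to 581 CPM in KO and 185 to 284 CPM in WT. Cortical excitatory neuron markers were present in every library, with all 17 tested and sums of 5846 to 6874 CPM in KO and 6240 to 6820 CPM in WT.

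To set the 10 precursors beside each other, levels were divided by exon length. *Cck* had the highest level, with a mean of 218 CPM per kb over the 6 libraries and a range of 179 to 310. *Scg2* followed at 80.0 CPM per kb (59.2 to 114) and *Vip* at 10.98 CPM per kb (9.48 to 12.6). The ranges of these 3 genes were separate from each other. From *Vip* down, each gene overlapped its neighbour in range: *Pdyn* had a mean level of 8.07 CPM per kb, *Adcyap1* 6.58, *Tac2* 4.85, *Grp* 4.24, *Crh* 3.39, *Pnoc* 2.04 and *Nts* 0.855. Among the 34 neuropeptide precursor genes tested, *Cck* ranked first by this level, ahead of *Sst* (150 CPM per kb), *Npy* (84.1) and *Scg2*. *Cck* and *Scg2* together gave 81.8% of the 46125 fragments counted for the 10 genes. No exon of another annotated gene overlapped the exons of any of the 10 on either strand.

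**Figure D1:**
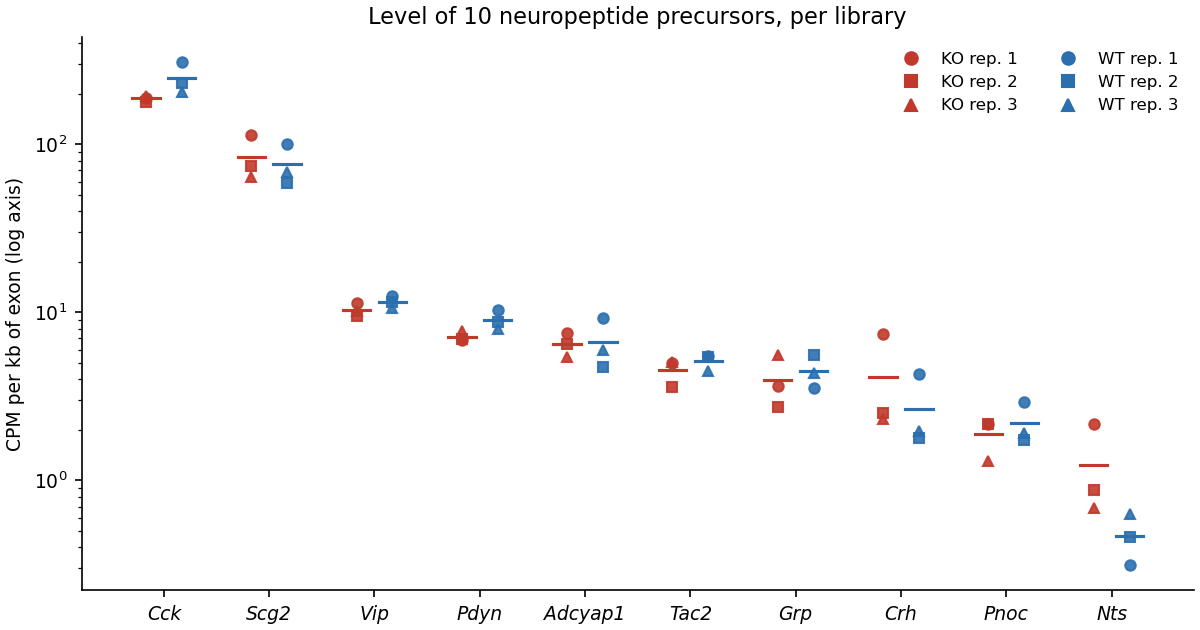
Level of each of the 10 precursor genes in CPM per kb of exon on a log axis, with KO libraries in red, WT libraries in blue, a symbol for each replicate number and a short line at each group mean (n = 3). *Cck* and *Scg2* stand above the other 8 genes in every library, and the KO and WT symbols are separate for *Cck*, *Pdyn* and *Nts*.

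Between KO and WT, 6 of the 10 precursors were lower and 4 were higher in KO by the limma-voom log2 fold change, with a median of -0.16 against 0.01 over all genes tested. With 1 library left out, 5 to 9 were lower, and the median ranged from -0.21 (WT replicate 3 left out) to -0.02 (KO replicate 2 left out). It was -0.04 when WT replicate 1 was dropped and -0.07 when KO replicate 3 was dropped. The KO and WT values were separate in 2 genes that were lower in KO, *Cck* and *Pdyn*, and in 1 that was higher, *Nts*. Over all genes tested, 6.29% were separate and lower and 6.72% separate and higher in KO. This contrast was in view when the genes were chosen, so nothing is read from the counts.

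*Cck* (ENSMUSG00000032532.8, minus strand of chromosome 9, 121318890 to 121324760 in GRCm39) encodes cholecystokinin, which acts in the cortex mainly through the CCK-B receptor. It was at 248, 234 and 253 CPM in KO replicates 1 to 3 against 404, 303 and 266 CPM in WT replicates 1 to 3. Every KO library was below every WT library, the 3 KO libraries lay close together, and WT replicate 1 stood above the rest. Mean levels were 245 ± 10 CPM for KO and 325 ± 71.5 CPM for WT (SD, n = 3 each), a log2 fold change of -0.38 (SE 0.12). The nearest values across the groups, 253 CPM in KO replicate 3 and 266 CPM in WT replicate 3, were closer to each other than the WT libraries were among themselves. In bulk tissue, fewer cells of a type and less RNA per cell cannot be told apart. With 1 library left out at a time the log2 fold change was between -0.52 and -0.21, the smallest size being that without WT replicate 1. Between the 2 *Xist*-expressing libraries the log2 difference of KO from WT was -0.71, and among the other 4 libraries it was -0.22.

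*Pdyn* (ENSMUSG00000027400.12, minus strand of chromosome 2, 129528485 to 129541764) had the same order of libraries within WT. It was at 19.7, 19.9 and 22.3 CPM among KO and 29.7, 25.2 and 22.9 CPM among WT libraries. The groups were again separate, by a gap between KO replicate 3 and WT replicate 3 that was smaller than the spread within WT. The log2 fold change was -0.32 (SE 0.11), between -0.41 and -0.22 with 1 library left out and -0.18 in the 4 libraries without *Xist*. For *Pdyn* as for *Cck*, WT replicate 1 was the highest of the 6 libraries and WT replicate 2 the second.

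*Nts* (ENSMUSG00000019890.5, minus strand of chromosome 10, 102317617 to 102326347) was the member of lowest level. It was counted with 40, 13 and 11 fragments among KO and 5, 7 and 10 among WT libraries, or 2.7, 1.09 and 0.859 CPM against 0.392, 0.573 and 0.785 CPM. All KO libraries were above all WT libraries, but the separation is that of 11 from 10 fragments. Exact 95% Poisson intervals, which cover counting error only, were 5.49 to 19.7 fragments for KO replicate 3 and 4.80 to 18.4 for WT replicate 3. They were 28.6 to 54.5 for KO replicate 1 and 1.62 to 11.7 for WT replicate 1, the only pair of libraries sharing a replicate number whose intervals were separate. The log2 fold change was 1.28 (SE 0.54). It was 2.67 between the *Xist*-expressing libraries and 0.49 among the other 4, and 0.74 to 1.61 with 1 library left out.

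In the remaining 7 precursors the KO and WT values overlapped. *Vip* (ENSMUSG00000019772.6, plus strand of chromosome 10, 5589218 to 5597617), vasoactive intestinal peptide, was at 39.0, 32.2 and 34.9 CPM among KO and 42.7, 39.1 and 36.2 CPM among WT libraries. KO replicate 1 reached the WT range, and the other 2 KO libraries were below it, for a log2 fold change of -0.15 (SE 0.10), between -0.22 (KO replicate 1 dropped) and -0.09 (WT replicate 1 dropped). *Vip* varied least of the 10 genes over the 6 libraries, with a coefficient of variation of 9.88%, where counting alone would give 4.55%.

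*Tac2* (ENSMUSG00000025400.12, plus strand of chromosome 10, 127560347 to 127567637), the precursor of neurokinin B, was at 6.89, 4.94 and 6.95 CPM among KO and 7.60, 7.53 and 6.20 CPM among WT libraries. KO replicate 2 was the lowest library, and the other 2 KO libraries lay between WT values. The log2 fold change was -0.18 (SE 0.18), between -0.28 (WT replicate 3 dropped) and -0.04 (KO replicate 2 dropped), and its coefficient of variation of 14.9% was close to the 10.8% of counting. *Pnoc* (ENSMUSG00000045731.7, minus strand of chromosome 14, 65638122 to 65662921), the precursor of nociceptin, was at 4.66, 4.69 and 2.81 CPM among KO and 6.35, 3.77 and 4.16 CPM among WT libraries, with a log2 fold change of -0.23 (SE 0.26) that was near 0 when KO replicate 3 (0.0081) or WT replicate 1 (0.00041) was dropped. Its highest library was WT replicate 1 and its lowest KO replicate 3. *Grp* (ENSMUSG00000024517.18), gastrin-releasing peptide, was at 5.41, 4.02 and 8.20 CPM among KO and 5.25, 8.27 and 6.44 CPM among WT libraries. The groups were interleaved, and the log2 fold change was -0.20 (SE 0.25), between -0.46 (KO replicate 3 dropped) and 0.0040 (KO replicate 2 dropped). *Grp* was the only 1 of the 10 whose mean log2 CPM was lower in KO replicate 1 and WT replicate 1 than in the other 4 libraries.

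*Scg2* (ENSMUSG00000050711.8, minus strand of chromosome 1, 79412386 to 79417837) was at 287, 186 and 160 CPM among KO and 254, 149 and 171 CPM among WT libraries. KO replicate 1 and WT replicate 1 stood above the other 4 libraries, which lay between 149 and 186 CPM whatever their genotype, and KO over WT gave a log2 fold change of 0.14 (SE 0.20), from -0.11 (KO replicate 1 dropped) to 0.36 (WT replicate 1 dropped). *Adcyap1* (ENSMUSG00000024256.8, plus strand of chromosome 17, 93506445 to 93513965) was at 28.4, 24.5 and 20.6 CPM among KO and 35.1, 18 and 22.5 CPM among WT libraries, with a log2 fold change of 0.01 (SE 0.20), from -0.20 (WT replicate 2 dropped) to 0.28 (WT replicate 1 dropped). The same 2 libraries were the highest, in the other order. *Crh* (ENSMUSG00000049796.5, minus strand of chromosome 3, 19747565 to 19749560), corticotropin-releasing hormone, was at 9.87, 3.35 and 3.05 CPM among KO and 5.64, 2.37 and 2.59 CPM among WT libraries. Again KO replicate 1 and WT replicate 1 were highest, and the mean log2 CPM of this pair was 1.39 above that of the other 4 libraries. The log2 fold change of *Crh* was 0.56 (SE 0.45), from -0.04 (KO replicate 1 dropped) to 0.96 (WT replicate 1 dropped).

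**Figure D2:**
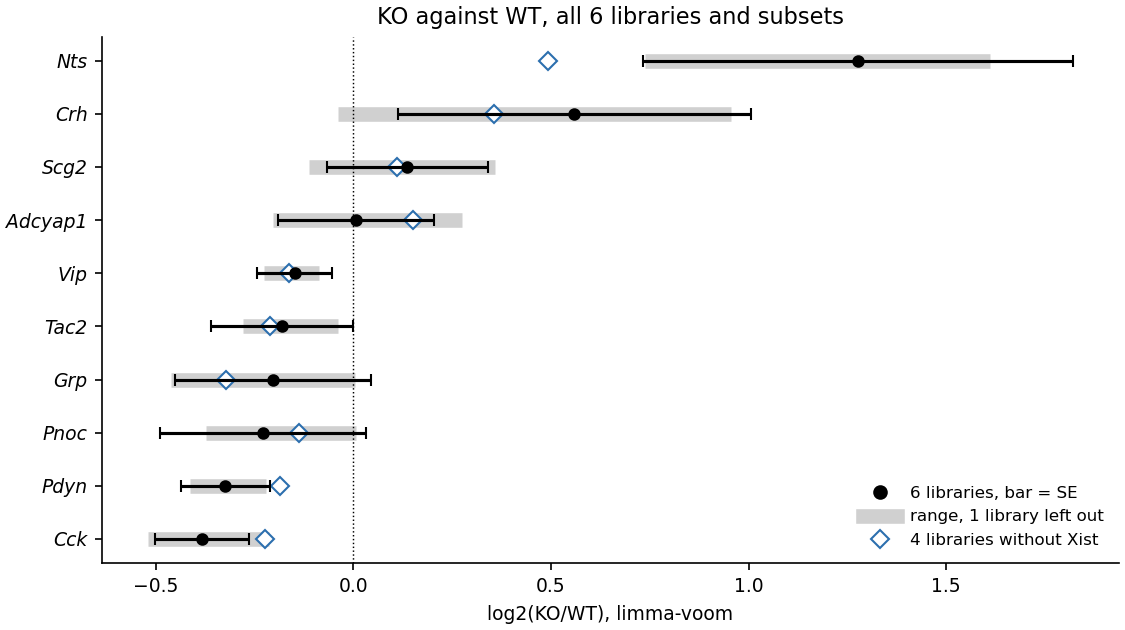
Log2 fold change of KO over WT for each precursor (limma-voom), as a black point with its SE for all 6 libraries, a grey band for the range with 1 library left out at a time, and an open diamond for the 4 libraries without *Xist*. *Cck* and *Pdyn* lie below 0 in all of them and *Nts* above 0, while the bands of *Scg2*, *Adcyap1*, *Crh*, *Pnoc* and *Grp* cross 0. Where KO and WT values are separate, as for *Cck*, *Pdyn* and *Nts*, leaving libraries out can hardly turn the sign.

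The 2 libraries that express *Xist*, KO replicate 1 and WT replicate 1, were the 2 highest libraries for 3 of the 10 genes, *Scg2*, *Adcyap1* and *Crh*, against 8.29% of all genes tested. This was not particular to the members. The same held for 8 of 24 other neuropeptide precursors tested and for 5 of 22 genes of interneuron classes. The mean of this pair was above the mean of the other 4 libraries for 9 of the 10 precursors, and for 50.1% of all genes. The median of that difference was 0.31 on the log2 scale for the precursors and 0.000352 for all genes. The pair did not move together in every gene: KO replicate 1 was below and WT replicate 1 above the 6-library mean for *Cck* (-0.17 and 0.53) and *Pdyn* (-0.23 and 0.36), and the reverse held for *Nts* (1.57 and -1.09). The same libraries differed in olfactory bulb markers. Ordered from high to low, the libraries ran KO replicate 1, WT replicate 1, KO replicate 2, WT replicate 3, KO replicate 3 and WT replicate 2 for these markers, and *Scg2* had exactly that order. The mean of the other neuropeptide precursors had that order too. For *Crh* and *Adcyap1*, WT replicate 2 was likewise the lowest. The sex of the animals and the piece of tissue taken cannot be told apart for KO replicate 1, and their part in the levels of these genes was not tested.

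Without KO replicate 1 and WT replicate 2, the libraries of highest and lowest olfactory bulb markers, 9 of the 10 precursors were lower in KO, where 49.7% of all genes were, and their median log2 fold change was -0.27. This pair was chosen after seeing the data, and nothing is read from the count. The direction turned in 3 genes: *Crh* was then at -0.26, *Scg2* at -0.27 and *Adcyap1* at -0.33. For each of these, WT replicate 2 was the lowest library and KO replicate 1 the highest KO library. Dropping both lowers their log2 fold changes by construction. *Grp*, counted among the 9, was at -0.00098. Of the marker list itself, 12 of 12 genes were higher in KO with all libraries (median log2 fold change 1.6), and 8 of 11 were lower in this setting (median -0.06). These markers defined the pair that was dropped, so their shift follows from that choice.

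**Figure D3:**
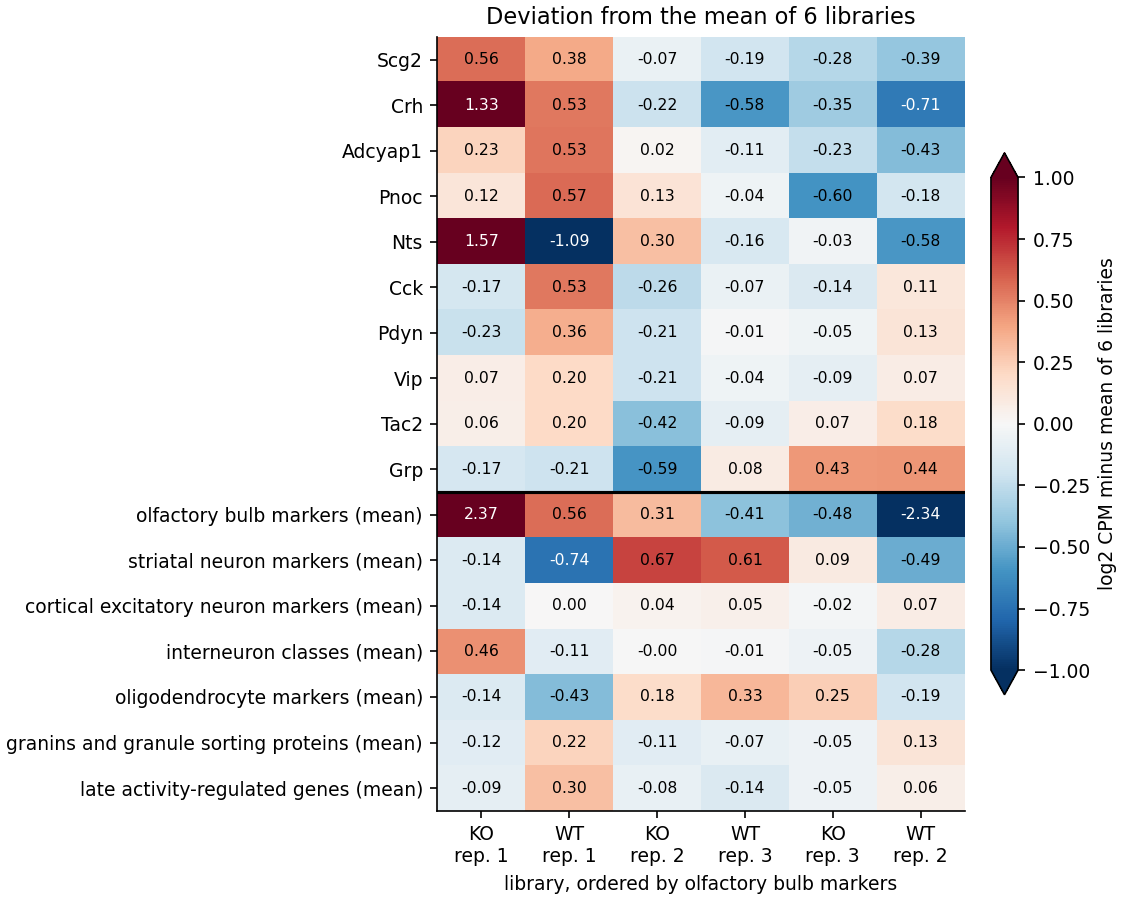
Deviation of log2 CPM from the mean of the 6 libraries for each precursor (above the line) and for the mean of marker lists (below it), with libraries as columns ordered by olfactory bulb markers and the value printed in each cell. Colours stop at 1 and -1. *Scg2*, *Crh* and *Adcyap1* are highest in the 2 libraries on the left and lowest in the one on the right, whereas *Cck* and *Pdyn* peak in WT replicate 1 and are negative in all 3 KO libraries.

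The transcripts whose library profile was nearest to that of *Cck* were found among 10818 genes whose mean log2 CPM was 3 or more. The measure was the root-mean-square difference between profiles over the 6 libraries, each centred on its mean. The 5 nearest were *Wnt4*, a secreted Wnt ligand, at 0.0581, *Tmem141* at 0.0682, *Bdnf*, a neurotrophin, at 0.0739, *Tmed2*, a cargo receptor of the early secretory pathway, at 0.0756, and *Nrn1*, which encodes neuritin, at 0.0834. For comparison, the profile of *Cck* deviated from a flat line by 0.264. All 5 were highest in WT replicate 1, as *Cck* was, which follows from choosing them by nearness to its profile. *Bdnf* was at 23.6, 23.9 and 26.4 CPM among KO and 38.02, 30.6 and 24.1 CPM among WT libraries, and *Nrn1* was at 137, 137 and 162 CPM among KO and 237, 162 and 159 CPM among WT libraries. Both belong to a list of 10 late activity-regulated genes, of which 8 were lower in KO (median log2 fold change -0.20) and 1, *Nrn1*, had an unadjusted p under 0.05 in limma-voom (adjusted p = 0.635). The list median was -0.06 with WT replicate 1 dropped, where *Nrn1* was at -0.14, and -0.07 in the 4 libraries without *Xist*.

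**Figure D4:**
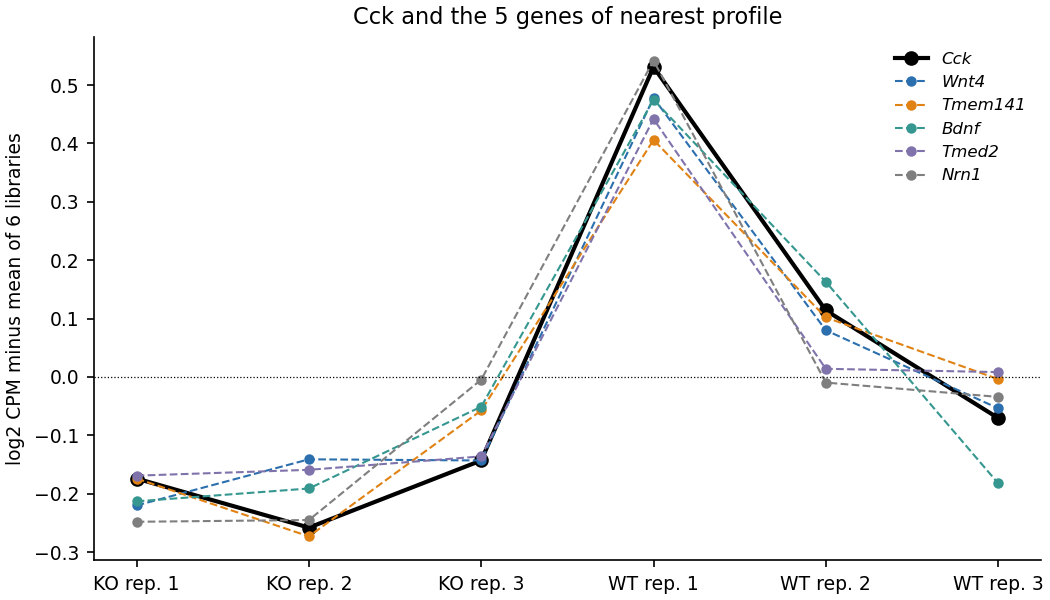
Log2 CPM minus the mean of the 6 libraries for *Cck* (black) and its 5 nearest genes (dashed), with 1 point for each library and lines that join the points of a gene. Each gene peaks in WT replicate 1, between 0.41 and 0.54, and lies below 0 in the 3 KO libraries. The 5 were chosen for nearness to *Cck*, so the shared shape follows from that choice.

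The rest of the pathway was described by lists of genes, each beside the share over all genes: 3.44% had an unadjusted p under 0.05 and were lower in KO, and 4.38% were higher. No gene of any list passed the adjusted threshold, with 0.635 the lowest adjusted p (limma-voom). Of 15 receptors and binding proteins for the 10 peptides, 14 were tested, with 8 lower and 6 higher in KO and a median log2 fold change of -0.03. When scaled by library totals only, 7 of the 14 were lower. The median had no settled sign. It was positive in edgeR (0.04), DESeq2 (0.03), with the stricter filterByExpr filter (0.03), with the replicate block (0.0041), with KO replicate 1 (0.05) or WT replicate 3 (0.02) dropped, without the *Xist*-expressing libraries (0.07) and without KO replicate 1 and WT replicate 2 (0.0096). *Cckar*, the CCK-A receptor, had no fragment in any library. *Cckbr*, the CCK-B receptor, was the only 1 with an unadjusted p under 0.05 in limma-voom (adjusted p = 0.635). It was at 54.6, 66.8 and 78.9 CPM among KO and 78.9, 89.7 and 74.1 CPM among WT libraries. The groups overlapped, since KO replicate 3 was level with WT replicate 1 and above WT replicate 3. Its log2 fold change was -0.29 (SE 0.12). It was -0.15 without KO replicate 1 and -0.07 without KO replicate 1 and WT replicate 2.

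Of the receptors of VIP and PACAP, *Adcyap1r1*, which prefers PACAP, was at 181 to 217 CPM in the 6 libraries, with a log2 fold change of 0.09 (SE 0.07) that was 0.03 when KO replicate 1 was dropped. *Vipr1* was at 32.2 to 45.1 CPM (log2 fold change -0.10, SE 0.12, and 0.07 when KO replicate 1 was dropped). *Vipr2* was at 21.5, 5.95 and 3.12 CPM among KO and 5.02, 0.327 and 3.85 CPM among WT libraries. Its extreme libraries were those of the olfactory bulb markers, KO replicate 1 at the top and WT replicate 2 at the bottom. The log2 fold change of *Vipr2* was 1.98 (SE 0.92) with all libraries, 1.12 without the first of these, 0.82 without the second and -0.04 without that pair. For the CRH system, the receptor *Crhr1* was at 30.7, 24.8 and 25.6 CPM among KO and 24.4, 20.5 and 24.3 CPM among WT libraries. These values were separate, with KO higher (log2 fold change 0.23, SE 0.11, adjusted p = 0.637 in limma-voom). The log2 fold change of *Crhr1* was 0.13 without KO replicate 1, 0.15 without WT replicate 2 and 0.05 without both. *Crhr2*, at 1.15 to 2.43 CPM, had a log2 fold change of 0.47 (SE 0.33), between 0.21 (KO replicate 1 dropped) and 0.68 (KO replicate 2 dropped). For *Crhbp*, which binds and sequesters CRH, it was -0.16 (SE 0.17), between -0.33 (WT replicate 3 dropped) and 0.03 (WT replicate 1 dropped).

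The nociceptin receptor *Oprl1* was at 30.96 to 37.9 CPM, with a log2 fold change of -0.02 (SE 0.09) that took the other sign with library totals as scaling or with KO replicate 1 dropped (0.07). *Oprk1*, the kappa opioid receptor on which dynorphins act, was at 5.34, 14.2 and 12.2 CPM among KO and 5.33, 8.35 and 11.9 CPM among WT libraries. KO replicate 1 and WT replicate 1 were its 2 lowest libraries, and its log2 fold change of 0.22 became 0.70 with the former dropped and -0.09 with the latter dropped. Among neurotensin receptors, *Ntsr2* was at 122, 95.8 and 115 CPM among KO and 98.7, 93.2 and 100 CPM among WT libraries (log2 fold change 0.18, SE 0.09). Dropping KO replicate 1 gave 0.11 and dropping KO replicate 2 gave 0.28. *Ntsr1* was at 6.95 to 9.74 CPM (log2 fold change -0.15, SE 0.16), with values from -0.26 (KO replicate 1 dropped) to -0.06 (WT replicate 2 dropped) and -0.37 in the libraries without *Xist*. *Sort1*, sortilin, was at 528 to 580 CPM (-0.03, SE 0.06, and -0.0011 with KO replicate 1 dropped). *Grpr* and *Tacr3*, the receptors of gastrin-releasing peptide and neurokinin B, reached at most 1.01 CPM in any library, and no direction can be given for them at this depth.

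By log2 fold change, the granins and granule sorting proteins other than *Scg2* were all lower in KO, whereas *Scg2* itself was at 0.14. Of 9 genes, 9 had a negative log2 fold change, where 48.1% of all genes had one, and the median was -0.17. *Scg5*, which encodes the chaperone 7B2 of prohormone convertase 2, was at 126, 139 and 143 CPM among KO and 153, 169 and 159 CPM among WT libraries. *Resp18*, an endocrine granule protein, was at 33.9, 35.3 and 38.3 CPM among KO and 43.8, 46.8 and 39.5 CPM among WT libraries. Both were separate between the groups and had an unadjusted p under 0.05 in limma-voom, with log2 fold changes of -0.24 (SE 0.07) and -0.28 (SE 0.09), and the adjusted p of each was 0.635. The other 7 granule genes, *Chga*, *Chgb*, *Scg3*, *Vgf*, *Pcsk1n*, *Ptprn* and *Ptprn2*, had log2 fold changes of -0.29 to -0.05. Their KO and WT values overlapped. WT replicate 3 was below every KO library for *Chgb* (386 against 394 to 426 CPM), *Vgf* (178 against 195 to 217) and *Ptprn* (611 against 636 to 672). All 9 stayed lower with library totals or relative log expression as the scaling, with edgeR and DESeq2, and without KO replicate 1 and WT replicate 2. Without WT replicate 1, and in the 4 libraries without *Xist*, 7 of the 9 were lower (median -0.11 in both).

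Of 20 peptide processing enzymes, 19 were tested, with 14 lower and 5 higher in KO and a median log2 fold change of -0.05. Dropping single libraries moved this median from -0.10 (KO replicate 3) to -0.0050 (WT replicate 1), with 12 of the 19 lower in both cases. *Pcsk2*, the convertase that 7B2 assists, had an unadjusted p under 0.05 and was at 361, 405 and 454 CPM among KO and 476, 525 and 435 CPM among WT libraries (log2 fold change -0.24, SE 0.09, and -0.15 without KO replicate 1). *Pcsk5*, another convertase, had one in the other direction, at 21.2 to 23.9 CPM in KO and 15.3 to 20.8 CPM in WT (0.34, SE 0.12). The KO libraries of *Pcsk2* overlapped WT through KO replicate 3, whereas those of *Pcsk5* did not overlap. *Cpe*, the carboxypeptidase that trims the cut peptides, was at 1508 to 1761 CPM over the 6 libraries (-0.05, SE 0.06), and *Pam*, which amidates them, at 199 to 230 CPM (-0.07, SE 0.06).

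Of 20 genes for dense-core vesicle release, 12 were lower and 8 higher in KO, with 4 lower and 1 higher at an unadjusted p under 0.05 in limma-voom. With KO replicate 1 dropped, alone or together with WT replicate 2, 9 of the 20 were lower, and 10 with WT replicate 2 alone dropped. Lower were *Rab3a*, a vesicle GTPase (log2 fold change -0.18, SE 0.07), *Syt4*, a synaptotagmin (-0.22, SE 0.08), *Rph3a*, which encodes rabphilin (-0.21, SE 0.08), and *Snap25*, a SNARE protein (-0.19, SE 0.08). Only *Rab3a* and *Syt4* of these had separate groups, *Syt4* at 186, 231 and 218 CPM among KO and 242, 250 and 243 CPM among WT libraries. *Baiap3*, a Munc13-related protein of dense-core vesicle traffic, was higher at 13.6, 8.63 and 8.67 CPM among KO and 5.57, 8.43 and 6.52 CPM among WT libraries (0.60, SE 0.21). With KO replicate 1 left out, the log2 fold changes were -0.13 for *Syt4*, -0.12 for *Rph3a* and *Snap25* and 0.36 for *Baiap3*, and *Snap25* was at -0.11 with WT replicate 2 left out. Of 14 peptidases that degrade neuropeptides, 6 were lower and 8 higher. *Ace* (log2 fold change -0.25, SE 0.11) and *Ece2* (0.41, SE 0.18) had an unadjusted p under 0.05 in limma-voom, in opposite directions. *Ace* was at -0.15 when WT replicate 1 was dropped and *Ece2* at 0.23 when KO replicate 1 was. The adjusted p of each of these 7 genes was 0.635.

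Among 44 other neuropeptide precursors, 24 were tested and 5 had no fragment in any library. Of the 24, 10 were lower and 14 higher in KO (median log2 fold change 0.08). This balance depended on single libraries: 12 of 23 were lower with KO replicate 1 dropped, 12 of 24 with WT replicate 2 dropped, 13 of 23 with both dropped (median -0.26) and 6 of 23 with WT replicate 1 dropped (0.25). *Sst*, somatostatin, was at 80.4, 95.3 and 93.1 CPM among KO and 142, 117 and 121 CPM among WT libraries, with separate groups and a log2 fold change of -0.50 (SE 0.09). Its unadjusted p of 0.000114 in limma-voom was the lowest of the list, and its adjusted p was 0.635. Higher at an unadjusted p under 0.05 were *Penk*, proenkephalin (log2 fold change 0.84, SE 0.32), *Agt*, angiotensinogen (0.85, SE 0.31), and *Cbln1*, a secreted synapse organiser (0.63, SE 0.26). *Agt* was at 8.65, 4.27 and 4.30 CPM among KO and 2.51, 4.01 and 2.90 CPM among WT libraries, and its log2 fold change was 0.48 without KO replicate 1 and 0.33 in the libraries without *Xist*. *Cbln1* was at 9.53, 4.61 and 5.70 CPM among KO and 4.55, 3.93 and 4.003 CPM among WT libraries, and at 0.31 on the log2 fold change scale without KO replicate 1. KO replicate 1 was the highest library for both. *Penk* was at 73.3, 66.9 and 41.2 CPM among KO and 29.6, 18.8 and 62.4 CPM among WT libraries, and it overlapped through WT replicate 3. Without WT replicate 2, *Penk* had a log2 fold change of 0.45. *Penk* is abundant in striatal neurons. Striatal neuron markers had their highest mean deviations in KO replicate 2 (0.67) and WT replicate 3 (0.61) and their lowest in WT replicate 1 (-0.74). All 9 of these tested were higher in KO with all libraries, 7 without KO replicate 2 and 6 without WT replicate 1, and their part in the value of *Penk* was not tested.

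**Figure D5:**
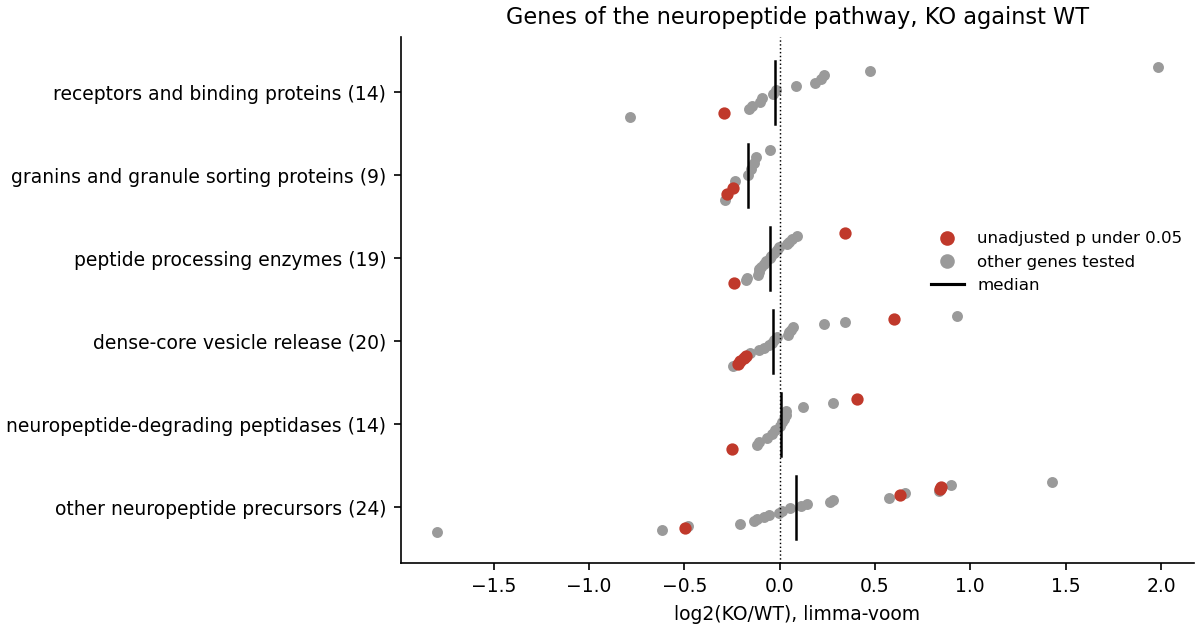
Log2 fold change of KO over WT (limma-voom) for every tested gene of 6 lists of the neuropeptide pathway, 1 point for each gene, with red for an unadjusted p under 0.05 and a bar at the median of the list. The 9 granin points lie left of 0, and the other 5 lists lie on both sides.

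Markers of the cells that make these peptides were set beside the precursors. Of 22 genes of the interneuron classes, 17 were higher and 5 lower in KO (median log2 fold change 0.18), with 3 higher and 3 lower at an unadjusted p under 0.05 in limma-voom. Higher were *Dlx1* (0.76, SE 0.30), *Dlx5* (0.86, SE 0.36) and *Adarb2* (0.46, SE 0.16), transcription factors and an RNA-binding protein of interneurons, the first pair being expressed in the olfactory bulb too. Lower were *Lhx6*, a factor of interneurons from the medial ganglionic eminence (-0.33, SE 0.11), *Pvalb* (-0.23, SE 0.10) and the cannabinoid receptor gene *Cnr1* (-0.16, SE 0.07). The KO and WT values of *Cnr1* overlapped, with KO replicate 2 at 209 CPM and WT replicate 3 at 207 CPM. The summed level of the list was 1225 to 1860 CPM in KO and 1144 to 1429 CPM in WT. Without KO replicate 1 and WT replicate 2, 12 of the 22 were lower (median -0.07), and without KO replicate 1 alone 10 were (0.02). *Dlx1* was then at 0.30, *Dlx5* at 0.37, *Adarb2* at 0.28 and *Pvalb* at -0.15. Of 17 cortical excitatory neuron markers, 13 were lower in KO, 9 without that pair of libraries, 8 without KO replicate 1 and 8 without WT replicate 3. *Neurod6* was at 60.7, 78.1 and 76.8 CPM among KO and 113, 85.7 and 89.2 CPM among WT libraries (log2 fold change -0.42, SE 0.12). These values were separate between the groups, as those of *Cck* and *Pdyn* were, and the adjusted p was 0.635 in limma-voom. Of 9 oligodendrocyte markers, 8 were higher in KO (median 0.16), with mean deviations from -0.43 in WT replicate 1 to 0.33 in WT replicate 3. The median was 0.04 without WT replicate 1 and 0.43 without WT replicate 3. Of 15 immediate early genes, 4 were lower and 11 higher (median 0.15), and none had an unadjusted p under 0.05. Their direction rested on single libraries, with 11 of the 15 lower without KO replicate 2 (median -0.09) or without WT replicate 1 (-0.16). The part of cell composition in the levels of the precursors was not tested.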

How the data were processed

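The deposited values were raw counts of fragments per gene, 1 table for each of the 6 samples (3 KO, 3 WT, grouped by the genotype label). The authors made stranded libraries of polyadenylated RNA and aligned reads with STAR 2.7.9a. Per the file headers, exonic fragments were counted by gene with featureCounts 1.6.0, paired and by strand, and a length column, of another unit, gave exon bases for each gene. Headers name GRCm39, whereas the methods name an earlier build. Multi-mapping fragments were not counted, so reads shared with near-identical copies are missing.

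Genes with at least 6 fragments in 1 library were tested with limma-voom (limma 3.58.1, edgeR 4.0.16 TMM factors, R 4.3.3), two-sided, with Benjamini-Hochberg adjustment over all 19084 genes, after the study's design. The members and lists were chosen with earlier results of these data known. Named were the 10 members, *Pla2g4e*, every receptor or binding protein of a member, up to 6 genes per other list with an unadjusted p under 0.05 (otherwise that of lowest p), the 5 genes nearest to *Cck*, *Sst*, *Xist* and Y-linked genes. *Cpe*, *Pam*, the remaining granule genes and genes called only in an alternative were named after their values were seen. A gene that the rule names is not reported here. Alternatives were edgeR quasi-likelihood, DESeq2 1.42.0, other scalings and filters, quality weights, a replicate block, a sex covariate and left-out libraries. The fits were tested on simulated counts. Promoters came from RefSeq and were not joined to GRCm39 coordinates.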

Additional observations from a re-analysis of the deposited data

How the results depend on the processing

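The count of genes past the adjusted threshold was 0 in limma-voom and edgeR. It was 1 in DESeq2 (*Sst*, adjusted p = 0.0122), 24 with the sex of the library as a covariate (*Sst* at 0.0295, *Th* and *Sp8* at 0.0131), 3 without the *Xist*-expressing libraries (*Gfap*, *Col6a4* and *Eps8l1*), and 1 without the libraries of highest and lowest olfactory bulb markers (*Ripor2*), a setting chosen after seeing the data. With 1 library left out it was 0 to 1, the 1 being *Ripor2* without WT replicate 2. Genes with an unadjusted p under 0.05 numbered 902 in DESeq2, 696 without the *Xist*-expressing libraries, 690 without the olfactory extremes, and 782 to 2239 with 1 library left out (830 without KO replicate 1, 782 without WT replicate 2, 2239 without WT replicate 3). Of these calls, 56.0% were higher in KO in limma-voom, 71.9% with library totals as scaling, 48.7% in DESeq2 and 45.9% without WT replicate 3. The cause of these differences was not tested.

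Of the 10 members, 5 kept their sign in all 17 alternatives (*Cck*, *Pdyn*, *Vip*, *Tac2* and *Nts*). The alternatives reuse the same libraries, in which *Cck*, *Pdyn* and *Nts* had separate groups, and the members were chosen with these values in view. Nothing is therefore read from this count. *Nts* was 0.49 without the *Xist*-expressing libraries and, without the olfactory extremes, *Crh* was -0.26, *Scg2* -0.27 and *Adcyap1* -0.33. With 1 library left out, 5 to 9 members were lower in KO. Some receptor genes, none of them called, changed sign. Without the olfactory extremes *Vipr2* was -0.041, *Vipr1* 0.087, *Sort1* 0.018 and *Oprl1* 0.067. Without the *Xist*-expressing libraries *Vipr1* was 0.085 and *Oprl1* 0.059. *Oprl1* was 0.0048 with library totals and 0.0081 with quality weights. *Tacr3* was 0.16 in edgeR, 0.10 in DESeq2 and 0.023 with the replicate block. With 1 library left out, the ranges that crossed 0 were -0.33 to 0.025 for *Crhbp*, -0.19 to 0.066 for *Vipr1*, -2.08 to 0.43 for *Tacr3*, -0.088 to 0.70 for *Oprk1*, -0.087 to 0.068 for *Oprl1* and -0.41 to 0.30 for *Grpr*.

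Same-numbered samples had correlations of deviations of 0.23, 0.05 and -0.01, which does not make pairs of them. With the replicate block 0 genes passed the adjusted threshold, 1693 had an unadjusted p under 0.05 and 7 members were lower in KO. Depth limits *Nts*, *Tacr3* and *Grpr*, and 3 libraries per group limit every comparison.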
